A study of Homo sapiens with 6 samples.

Results

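The CXC chemokines that attract neutrophils, CXCL1, CXCL2, CXCL3, CXCL5, CXCL6 and CXCL8, were examined in MDA-MB-231 cells that received ADAR1 p110 or green fluorescent protein (GFP). The 6 genes were taken by symbol from a table of 60461 genes. As a family they were chosen by CPM, the reads of a gene scaled to a library of fixed size, in this same comparison, which earlier work on these data had shown to be lower with ADAR1 p110. Their differences between the groups are therefore given as a description, without a test of their own. Of the 6 genes, 4 passed the filter on low counts and were among the 18899 genes tested. CXCL5 and CXCL6 did not pass it.

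MDA-MB-231 is an established triple-negative breast cancer line of mesenchymal character. All cells received adenovirus at a multiplicity of infection of 200, coding either for ADAR1 p110, the nuclear isoform of an adenosine deaminase that edits double-stranded RNA, or for enhanced GFP in the controls. Medium was replaced at 16 h and total RNA was taken at 48 h, with 3 libraries per group. The labels call the replicates biological but do not say how cultures were kept apart, so errors describe the spread between these libraries, and untransduced cells were not analysed here.

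CXC chemokines are small secreted proteins that bind heparan sulfate on cells and matrix and signal through G protein-coupled receptors. The members studied here carry a glutamate-leucine-arginine motif before their paired cysteines and act on CXCR2, and CXCL6 and CXCL8 also on CXCR1, receptors that bring neutrophils to inflamed tissue. Their genes lie together on chromosome 4. Transcription of the family is known to be driven by NF-kappaB downstream of interleukin-1 and tumour necrosis factor, with help from AP-1 and C/EBP factors, and their messenger RNAs are known to be short-lived through AU-rich elements. CXCL8, or interleukin-8, is the member most often described in breast cancer cells of this kind.

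The promoter sequences are shown first because all 6 genes share a short NF-kappaB-like element there, whether or not the gene was expressed in this line. Each line gives 100 bases around that element in gene sense, 5′ to 3′, from RefSeq windows of build GRCh38.p14 that were found once each, letter for letter, in hg19, the build of the count table. Capitals mark every match to GGNNNTTCC on either strand, a loose form of the NF-kappaB element that contains the exact form GGAATTTCC.
CXCL1: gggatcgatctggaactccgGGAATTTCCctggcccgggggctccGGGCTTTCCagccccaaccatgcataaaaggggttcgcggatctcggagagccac
CXCL2: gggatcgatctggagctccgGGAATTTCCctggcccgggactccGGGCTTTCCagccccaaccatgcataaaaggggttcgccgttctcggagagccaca
CXCL3: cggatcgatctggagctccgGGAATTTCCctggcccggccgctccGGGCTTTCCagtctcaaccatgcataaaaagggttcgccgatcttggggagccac
CXCL8: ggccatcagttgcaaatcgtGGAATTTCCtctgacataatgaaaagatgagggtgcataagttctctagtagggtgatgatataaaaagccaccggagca
CXCL5: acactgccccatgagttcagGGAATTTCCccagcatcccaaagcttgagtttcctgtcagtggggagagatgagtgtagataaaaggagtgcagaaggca
CXCL6: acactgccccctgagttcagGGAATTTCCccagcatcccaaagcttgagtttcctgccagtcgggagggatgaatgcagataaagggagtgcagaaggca
In hg19 these lie at chr4:74735012-74735111 for CXCL1 (plus strand), chr4:74964910-74965009 for CXCL2 (minus), chr4:74904405-74904504 for CXCL3 (minus), chr4:74606175-74606274 for CXCL8 (plus), chr4:74864405-74864504 for CXCL5 (minus) and chr4:74702286-74702385 for CXCL6 (plus).

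The exact element GGAATTTCC began 77 bases before the RefSeq start in CXCL2, 78 before it in CXCL1 and CXCL3, 89 in CXCL6, 90 in CXCL5 and 91 in CXCL8. It occurred in 6 of the 6 chemokine windows and in 162 of all 35116 RefSeq windows of 300 bases, or 0.461%, searched on both strands. The loose form occurred in 20.1% of all windows. CXCL1, CXCL2 and CXCL3 each held another loose match, GGGCTTTCC, beginning 53 bases before the start, and this match was not found in the windows of CXCL5, CXCL6 and CXCL8. A match is a run of letters and was not shown here to be bound.

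CXCL8 differed from the others in the rest of its promoter. Its full window of 300 bases is shown because the classical AP-1, NF-kappaB and TATA elements of this gene stand in it in that order, as capitals matching TGANTCA, GGNNNTTCC and TATAAA (hg19 chr4:74606036-74606335, plus strand).
CXCL8 window: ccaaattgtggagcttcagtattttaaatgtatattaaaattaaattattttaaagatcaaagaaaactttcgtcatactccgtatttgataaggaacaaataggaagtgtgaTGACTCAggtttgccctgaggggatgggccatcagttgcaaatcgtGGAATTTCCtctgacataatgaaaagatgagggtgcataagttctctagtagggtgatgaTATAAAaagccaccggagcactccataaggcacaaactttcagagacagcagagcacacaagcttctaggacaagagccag
The AP-1 match TGACTCA began 137 bases before the RefSeq start and the TATA match 31 bases before it. Across all windows 7.71% held TGANTCA and 11.5% held TATAAA, and among the 6 chemokines CXCL8 alone held either. Only these forms were searched, so the other windows may hold related TATA or AP-1 sites. The sequences shown above for the other genes each hold the run ataaa. A palindromic C/EBP form, TTGCNNCAA, was in 1.98% of all windows and in 0 of the 6. Only this full palindrome was searched, so its absence does not mean that the windows lack other C/EBP sites.

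By global alignment the promoter windows fell into pairs and triplets of close relatives. CXCL5 and CXCL6 shared 83.1% of positions, CXCL1 and CXCL3 82.5%, CXCL2 and CXCL3 70.9% and CXCL1 and CXCL2 68.4%. The CXCL8 window shared 38.4% to 40.5% with the others, and its GC content of 39.3% compared with 58.7% to 66.3% in the other 5.

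**Figure D1:**
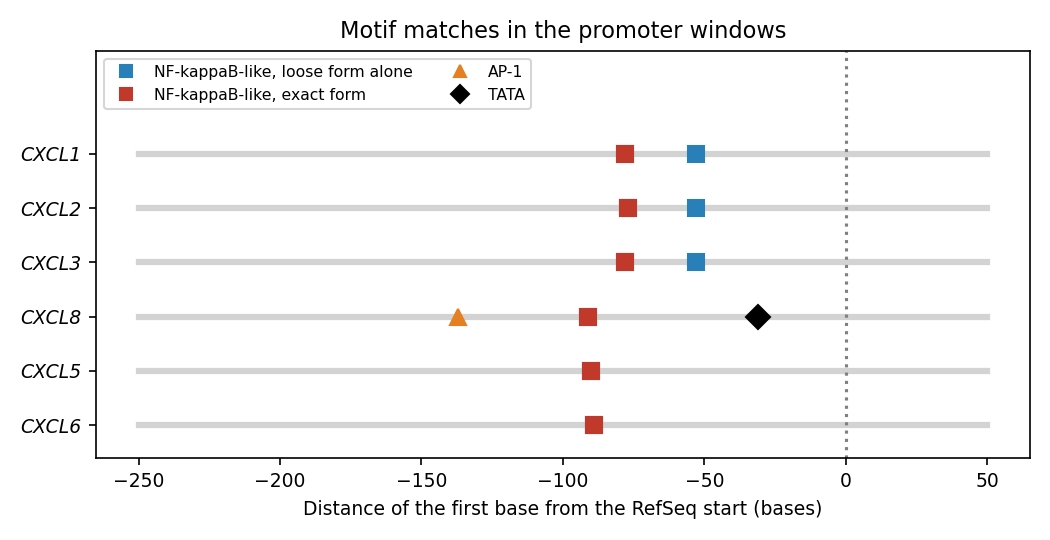
Positions of motif matches in the RefSeq promoter windows of the 6 chemokines, as the distance in bases of the first base of a match from the start (horizontal axis; dotted line at the start), 1 gene per row. Red squares mark the exact NF-kappaB-like form, present in every row between 91 and 77 bases before the start, blue squares the loose form alone, the triangle AP-1 and the diamond TATA.

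The libraries held 72741235 to 99589278 counts. ADAR itself stood at 1006 ± 13.2 CPM in the ADAR1 p110 libraries and 267 ± 8.67 CPM in the GFP libraries (SD, n = 3 each), so the overexpressed gene matched the labels. The second principal component, with 21.9% of the variance, separated 2 libraries, ADAR1 p110 replicate 1 and GFP replicate 2, from the remaining 4. A list of 6 genes known to be high in MDA-MB-231, VIM and AXL among them, summed to 5703 to 5965 CPM with ADAR1 p110 and 5262 to 5467 CPM with GFP, ranges that did not overlap, and 2 of the 6, CAV1 and S100A4, rose. Both calls were lost on leaving out any library other than ADAR1 p110 replicate 1, and with the replicate block. Of 6 luminal genes known to be low in this line, ESR1, PGR and FOXA1 had at most 6 counts in any library, but the list summed to 97.8 to 106.1 CPM over both groups, mostly from ERBB2 at 90.1 ± 2.04 CPM with ADAR1 p110 and 85.8 ± 3.16 CPM with GFP, and edgeR called 0 of the 3 tested, also with 0 at an unadjusted p under 0.05. A list of 12 leukocyte markers, relevant because leukocytes also make these chemokines, summed to 3.13 to 3.71 CPM with ADAR1 p110 and 3.75 to 4.85 CPM with GFP. Most of that sum was the monocyte marker CD14, which had 202 to 335 counts per ADAR1 p110 library and 227 to 363 per GFP library (log2 fold change -0.30, SE 0.14) and was not called. The pan-leukocyte marker PTPRC had 15 to 34 counts per library. Of the 12, CSF3R, FCGR3B and CD3E were at 0 counts in all 6 libraries, and edgeR called 0 of the 2 tested, with 0 at an unadjusted p under 0.05. Fibroblast and endothelial markers summed to 53.6 to 60.0 CPM with ADAR1 p110 and 61.1 to 65.0 CPM with GFP. Of 6 tested, 1 fell, KDR, where 2.96% of all tested genes fell and 1.95% rose. The part of these small marker differences in the chemokine values was not tested.

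CXCL8 was the most abundant member in every library. CXCL8 (ENSG00000169429.10_2, hg19 chromosome 4, 74606223 to 74609433, plus strand) had 338.5, 342 and 323 CPM in GFP replicates 1, 2 and 3. In ADAR1 p110 replicates 1, 2 and 3 it had 25.0, 28.7 and 31.6 CPM. The lowest GFP library was far above the highest ADAR1 p110 library, with a gap of 3.35 on the log2 scale. As ADAR1 p110 over GFP, the log2 fold change was -3.56 (SE 0.08), which is 11.8-fold. In bulk RNA, fewer cells expressing a gene and less RNA per cell cannot be told apart.

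Per kilobase of deposited gene length, CXCL8 reached 147 ± 4.64 CPM per kb in the GFP libraries, a level that ranked 214 among the 18899 tested genes, and 12.5 ± 1.45 CPM per kb, rank 3848, in the ADAR1 p110 libraries (SD, n = 3 each). The GFP-treated line thus carried CXCL8 RNA among its more abundant transcripts.

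CXCL1, first described as a melanoma growth-stimulating activity, had the largest fold difference of the 6. CXCL1 (ENSG00000163739.4_2, chromosome 4, 74735110 to 74736959, plus strand) had 38.3, 41.9 and 37.8 CPM in GFP replicates 1, 2 and 3. In the ADAR1 p110 replicates it had 2.30, 2.11 and 2.51 CPM. The libraries of the groups did not overlap, and 175 to 208 counts remained per ADAR1 p110 library against 3039 to 3722 with GFP. The log2 fold change was -4.10 (SE 0.09), or 17.1-fold, the third-lowest value among all tested genes.

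CXCL2, known as macrophage inflammatory protein 2-alpha, had the smallest difference of the 4 expressed members. CXCL2 (ENSG00000081041.8_2, chromosome 4, 74962752 to 74965010, minus strand) had 53.7, 56.0 and 52.8 CPM in GFP replicates 1, 2 and 3 and 12.1, 13.3 and 15.8 CPM in the ADAR1 p110 replicates. Its groups did not overlap either, and the log2 fold change was -1.98 (SE 0.09), or 3.94-fold. The ADAR1 p110 libraries varied more among themselves, with a coefficient of variation of 13.8%, than the GFP libraries at 3.06%.

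CXCL3, macrophage inflammatory protein 2-beta, was the scarcest of the 4. CXCL3 (ENSG00000163734.4_2, chromosome 4, 74902306 to 74904524, minus strand) had 6.26, 6.69 and 7.48 CPM in GFP replicates 1, 2 and 3, from 485 to 736 counts. It had 1.16, 1.47 and 1.35 CPM in the ADAR1 p110 replicates, from 88 to 145 counts. The groups stood apart by 2.09 on the log2 scale at their nearest libraries, and the log2 fold change was -2.35 (SE 0.12), or 5.11-fold.

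CXCL5 and CXCL6, which encode epithelial neutrophil-activating peptide 78 and granulocyte chemotactic protein 2, were not detectably expressed. CXCL5 (ENSG00000163735.6_2, chromosome 4, 74861359 to 74864496, minus strand) had 3 counts in GFP replicate 2 and 0 counts in each of the other 5 libraries. CXCL6 (ENSG00000124875.9_3, chromosome 4, 74702214 to 74714781, plus strand) had 0 counts in all 6. A count of 0 allows up to 3 counts, which was 0.0304 to 0.0414 CPM depending on the library and covers counting error only. No fold change can be given for either gene.

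**Figure D2:**
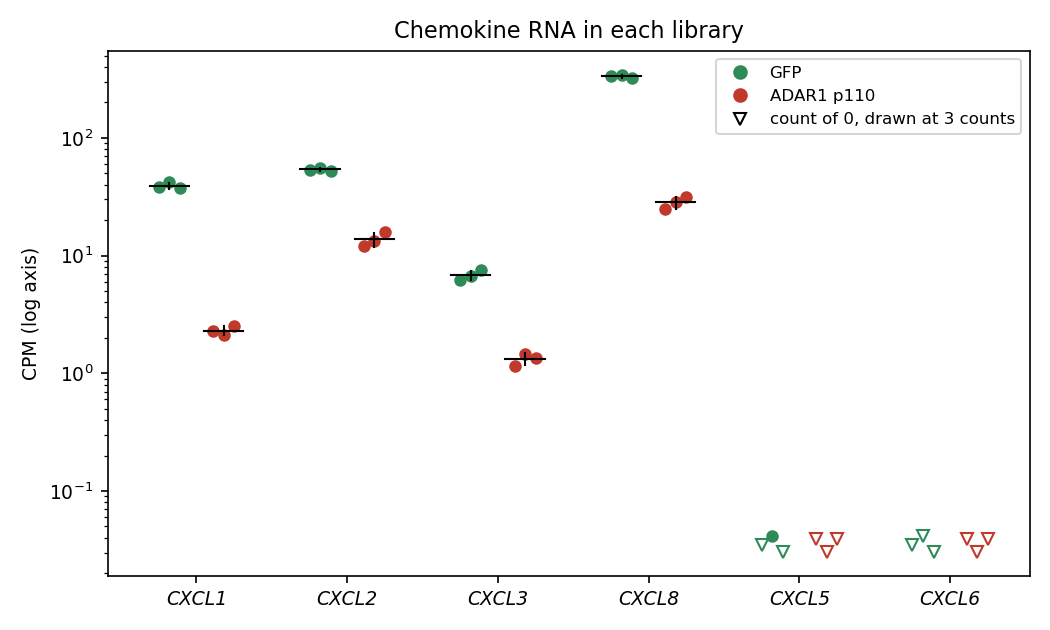
CPM of the 6 chemokines in each library on a log axis, GFP in green and ADAR1 p110 in red, with group means as horizontal bars and SD as vertical lines (n = 3 per group) for the 4 tested genes. Open triangles are libraries with 0 counts, drawn at the value of 3 counts, and for CXCL1, CXCL2, CXCL3 and CXCL8 every GFP library lies above every ADAR1 p110 library.

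In the edgeR fit over all genes, 4 of the 4 tested chemokines were called lower at an adjusted p under 0.05, where 4.91% of the 18899 tested genes were called, 2.96% lower and 1.95% higher. The balance of those calls, 559 lower and 368 higher, turned to 479 lower and 510 higher when libraries were scaled by total counts alone. All 4 also had each ADAR1 p110 library below each GFP library, as did 12.2% of tested genes. Because the family was chosen on this comparison, these counts describe it and support nothing further. All 4 genes passed the low-count filter through either group, the smallest ADAR1 p110 count being 88. By fold change, 10 tested genes fell at least 8-fold by estimate, CXCL1 and CXCL8 among them, and CXCL3 and CXCL2 ranked 23 and 37 from the bottom of all genes. The median log2 fold change of all tested genes was 0.00.

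Summed over the 6 genes, chemokine RNA took 0.0431% ± 0.00152 of all counts in the GFP libraries and 0.00461% ± 0.000528 in the ADAR1 p110 libraries (SD, n = 3 each). The sum was 436.8, 447 and 421 CPM in GFP replicates 1, 2 and 3 and 40.5, 45.6 and 51.2 CPM in the ADAR1 p110 replicates.

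The make-up of that RNA also differed, because the members were lowered to unequal degrees. Per kilobase, CXCL8 made up 67.9% ± 0.604 of the sum in the GFP libraries and 52.0% ± 0.888 in the ADAR1 p110 libraries (SD, n = 3 each). CXCL2 made up 16.5%, 16.7% and 16.8% in GFP replicates 1, 2 and 3 but 37.8%, 37.4% and 39.1% in the ADAR1 p110 replicates. CXCL1 went the other way, at 14.0% ± 0.428 with GFP and 7.45% ± 0.780 with ADAR1 p110, while CXCL3 stayed scarce at 1.42% ± 0.166 and 2.49% ± 0.272.

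With GFP the order of levels per kilobase was CXCL8, then CXCL2 at 36.1 ± 1.11, CXCL1 at 30.4 ± 1.70 and CXCL3 at 3.07 ± 0.280 CPM per kb (SD, n = 3 each). The ranges of CXCL2 and CXCL1, the closest neighbours, did not overlap in these libraries, the lowest CXCL2 value being 35.2 and the highest CXCL1 value 32.3 CPM per kb. With ADAR1 p110 the order was the same, with 9.16 ± 1.26 for CXCL2, 1.78 ± 0.154 for CXCL1 and 0.597 ± 0.0710 CPM per kb for CXCL3. The ratio of CXCL2 to CXCL1 per kilobase was 1.16 to 1.21 in the GFP libraries and 4.53 to 5.46 in the ADAR1 p110 libraries.

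Comparing members pairwise within each library, the log2 ratio of CXCL1 to CXCL2 was lower by 2.11 (SE 0.09) with ADAR1 p110 and that of CXCL1 to CXCL8 was lower by 0.53 (SE 0.10). The log2 ratio of CXCL2 to CXCL3 was higher by 0.38 (SE 0.14), the smallest of the 6 pairwise differences. For each of the 6 pairs the libraries of the groups did not overlap. The 6 pairs come from 4 genes and are not 6 separate results. Scaling between libraries cancels in these ratios, and they are descriptions of the comparison that chose the genes.

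**Figure D3:**
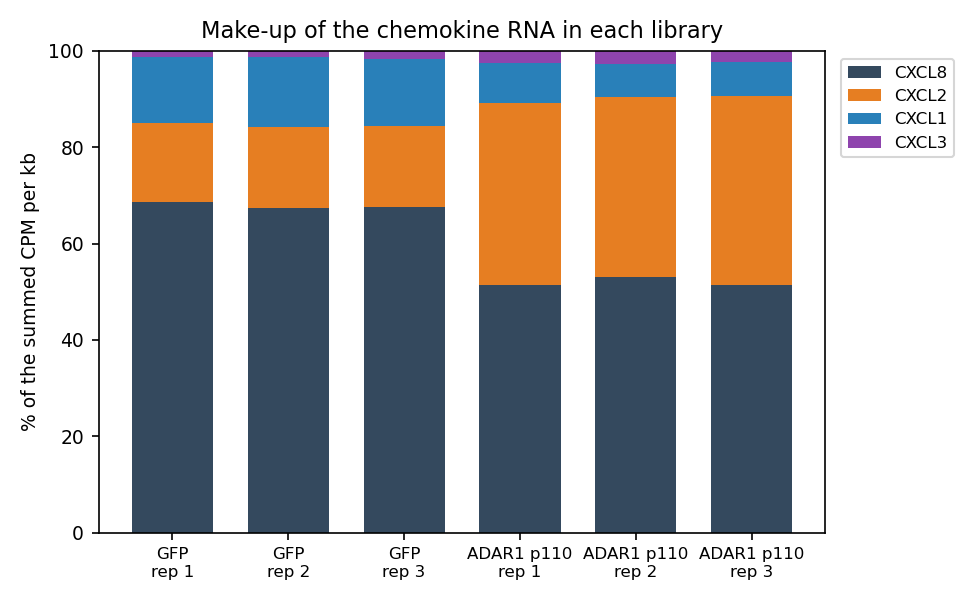
Share of each chemokine in the summed CPM per kb of the 6 genes (vertical axis, %), 1 bar per library, with CXCL5 and CXCL6 too low to be drawn. CXCL2 (orange) takes 16.5% to 16.8% of the bar in the GFP libraries and 37.4% to 39.1% in the ADAR1 p110 libraries.

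Reads of close relatives can be assigned unevenly, so the sequence shared between members was measured. The coding sequences of CXCL1 and CXCL2 were 93.5% identical, those of CXCL2 and CXCL3 94.4% and those of CXCL1 and CXCL3 90.7%, while CXCL5 and CXCL6 were 87.5% identical. Over whole transcripts of the GENCODE annotation, 13.4% of the distinct 50-base stretches of CXCL2 also occurred in another member, as did 6.01% of those of CXCL3 and 4.57% of those of CXCL1. For stretches of 100 bases the shares were 5.34%, 3.27% and 0%. CXCL8 shared 0% at either length. No other gene in the table overlapped CXCL1, CXCL2, CXCL3, CXCL5 or CXCL8, and CXCL6 overlapped the pseudogene PPBPP1, which had 0 counts.

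AU-rich elements in the 3′ ends of the messenger RNAs differed among members. The nonamer TTATTTATT, a core of such elements, was searched after the values had been seen. It occurred 5 times in the 3′ untranslated region of CXCL2, 3 times in that of CXCL1 and 1 time each in those of CXCL3 and CXCL8, but 0 times in CXCL5 and CXCL6, and 8.48% of 19064 genes held at least 1. The pentamer ATTTA stood at 14.0 per kb in CXCL2, 10.4 in CXCL3, 7.77 in CXCL1, 7.19 in CXCL8, 5.51 in CXCL5 and 5.36 in CXCL6, with a median of 1.67 per kb over all genes. CXCL2 ranked first by both measures, while CXCL1 came next by nonamers and CXCL3 by pentamers per kb. Any relation of these elements to the fold differences was not tested.

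The 6 genes span 358.8 kb of chromosome 4, and 41 other genes of the table lie within 1 Mb of them, of which 13 were tested. Of these neighbours 1 fell and 0 rose by the edgeR quasi-likelihood test, where 2.96% of all tested genes fell and 1.95% rose. Their median log2 fold change was -0.09. EREG, which encodes the epidermal growth factor receptor ligand epiregulin and lies 265.9 kb from CXCL2, fell from 80.2 ± 3.71 to 57.2 ± 5.09 CPM (edgeR adjusted p = 0.00233, log2 fold change -0.49 with SE 0.07). ANKRD17 and COX18, the most abundant neighbours without a call, had log2 fold changes of -0.12 (SE 0.09) and -0.04 (SE 0.06). Without ADAR1 p110 replicate 1, or without it and GFP replicate 2, ANKRD17 was called too, making 2. MTHFD2L, named after its values were seen as the nearest gene beyond CXCL2 at 14.9 kb, had 15.9 ± 2.59 CPM with ADAR1 p110 and 15.1 ± 0.629 CPM with GFP (adjusted p = 0.767).

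**Figure D4:**
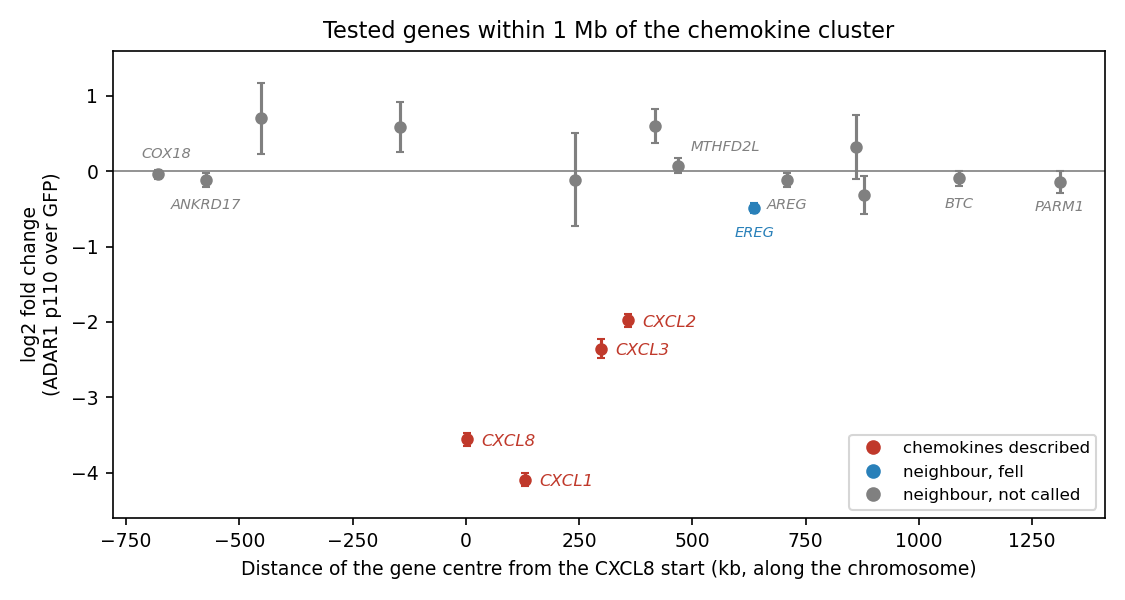
Tested genes within 1 Mb of the 6 chemokines, by log2 fold change, ADAR1 p110 over GFP (vertical axis, bars are SE), and by distance in kb of the gene centre from the CXCL8 start (horizontal axis). The 4 chemokines (red) lie between -4.10 and -1.98, and the 13 neighbours (EREG in blue, the rest grey) between -0.49 and 0.70.

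For each list that follows, the share over all 18899 tested genes was 2.96% lower and 1.95% higher. Among the other CXC chemokines, 4 of 11 were tested and 2 of these fell while none rose. Both that fell encode ligands of CXCR3, which draws T cells rather than neutrophils. CXCL10 stood at 0.497 ± 0.297 CPM with ADAR1 p110 and 2.88 ± 0.502 CPM with GFP (edgeR adjusted p = 0.000995, log2 fold change -2.56 with SE 0.32). CXCL11 stood at 1.58 ± 0.169 and 3.55 ± 0.341 CPM (log2 fold change -1.17, SE 0.13). PPBP and PF4, which encode platelet chemokines and sit between CXCL1 and CXCL5 in the same cluster, had 0 counts in all libraries and 2 to 19 counts per library.

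The receptors of the 6 chemokines were not detectable in these cells. CXCR2 had 0 counts in all 6 libraries, as did the scavenging receptor ACKR1, and CXCR1 had 2 counts in GFP replicate 2 and 0 in the others. Of 10 CXC and atypical receptors 3 were tested, and edgeR, DESeq2 and limma-voom each called 0, with 1 at an unadjusted p under 0.05. The most abundant of the 3, CXCR4, the receptor for CXCL12, had 15.3 ± 0.514 CPM with ADAR1 p110 and 13.02 ± 1.27 CPM with GFP (edgeR adjusted p = 0.152, log2 fold change 0.23 with SE 0.08).

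Cytokines that induce these chemokines, with their receptors and adaptors, were lower in part. Of 22 tested, 9 fell and 0 rose, with a median log2 fold change of -0.23. IL1A, encoding an interleukin-1 that is a strong inducer of CXCL8, fell from 4.80 ± 0.428 to 0.523 ± 0.0393 CPM (edgeR adjusted p = 2.54e-07, log2 fold change -3.19 with SE 0.14). TLR2, a sensor of bacterial lipoproteins, fell from 29.8 ± 0.816 to 13.4 ± 0.523 CPM and IRAK2, a kinase relay of interleukin-1 and Toll-like receptors, from 39.7 ± 2.03 to 17.5 ± 0.843 CPM. Named after their values were seen, TNF had 77, 52 and 79 counts in GFP replicates 1, 2 and 3 and 4, 1 and 1 in the ADAR1 p110 replicates, and IL1B had 103, 75 and 125 against 28, 22 and 17. Among receptors of the main inducers, TNFRSF1B, IL1R1 and IL1RAP fell, with log2 fold changes of -0.70, -0.45 and -0.26. The IL1RAP call was lost in 6 of 13 alternatives. TNFRSF1A, IL17RA and IL17RC, at 0.02, 0.01 and 0.06, did not pass.

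NF-kappaB subunits, kinases and inhibitors gave 9 lower and 0 higher of 14 tested, with a median log2 fold change of -0.61. Inhibitors that NF-kappaB is known to induce had the smallest p. TNFAIP3, the ubiquitin-editing brake A20, fell from 41.4 ± 2.002 to 10.6 ± 0.707 CPM (edgeR adjusted p = 4.07e-08, log2 fold change -1.97 with SE 0.07) and NFKBIA, which encodes IkappaB-alpha, by 1.34 on the log2 scale. The subunit RELB fell by 1.16. RELA, which encodes the p65 subunit best known at the CXCL8 promoter, stood at 61.1 ± 2.34 CPM with ADAR1 p110 and 69.0 ± 5.13 CPM with GFP and did not pass (log2 fold change -0.18, SE 0.06).

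The other transcription factors known at these promoters gave 4 higher and 0 lower of 15 tested, with a median log2 fold change of 0.07. Those that rose were AP-1 genes. Others of that kind, FOSL1, FOSL2, JUNB and ATF3, were not called, at log2 fold changes of -0.14, -0.08, -0.02 and 0.20. FOS rose by 1.35 (SE 0.07), FOSB by 0.93 (SE 0.10) and JUN by 0.44 (SE 0.07) on the log2 scale, the fourth being JUND (0.45), a call that did not survive leaving out any 1 of replicates 2 and 3 of ADAR1 p110 and 1 and 3 of GFP. FOSB overlaps ERCC1 on the other strand, which held 101% as many counts, and whether counting used strand is not given. CEBPB, the C/EBP factor studied at the CXCL8 promoter, was level at 25.7 ± 5.04 and 25.5 ± 2.34 CPM (log2 fold change 0.02, SE 0.12).

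Factors of messenger RNA decay and stability gave 2 higher and 1 lower of 14 tested, with a median log2 fold change of -0.02. ZC3H12A, encoding the endonuclease Regnase-1, fell from 40.5 ± 1.30 to 12.1 ± 0.545 CPM (edgeR adjusted p = 4.07e-08, log2 fold change -1.74 with SE 0.06). ZFP36, encoding tristetraprolin, which binds AU-rich elements and speeds decay, rose from 10.3 ± 1.51 to 15.3 ± 1.62 CPM (SE 0.11 around a log2 fold change of 0.57), a call that was lost on leaving out ADAR1 p110 replicate 3, or else GFP replicate 1. MAPKAPK2, whose kinase inactivates tristetraprolin, rose by 0.36 (SE 0.06) on the log2 scale. Without ADAR1 p110 replicate 1 the list had 5 calls.

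Other factors that recruit or sustain neutrophils gave 6 lower and 0 higher of 12 tested, with a median log2 fold change of -0.59. Those with the smallest p were the adhesion molecule ICAM1, to which neutrophils bind, at a log2 fold change of -2.40 (SE 0.06), the growth factor CSF2 at -2.90 (SE 0.09) and the cytokine IL6 at -1.58 (SE 0.06). The largest fall was that of CSF3, from 6.72 ± 0.536 to 0.545 ± 0.0886 CPM (log2 fold change -3.64, SE 0.14). CSF3 was named after its values were seen. The neutrophil attractants S100A8 and S100A9, more typical of myeloid cells, had 0 to 2 counts in any library. ANXA1, ALOX5 and LTA4H, which act in lipid mediator and resolution pathways, did not pass, at log2 fold changes of 0.06, -0.03 and 0.01.

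Proteases that cut chemokines and proteoglycans that hold them gave 4 lower and 1 higher of 15 tested, with a median log2 fold change of -0.12. SDC4, encoding the heparan sulfate proteoglycan syndecan-4, fell from 379.6 ± 2.26 to 195 ± 9.97 CPM (edgeR adjusted p = 1.03e-06, log2 fold change -0.96 with SE 0.05). MMP1 fell by 0.72 (SE 0.06) on the log2 scale, and MMP9, a gelatinase known to trim CXCL8 to a more active form, fell by 2.14 (SE 0.31) from 1.02 ± 0.107 CPM. MMP9 overlaps the antisense gene SLC12A5-AS1, with 22.6% as many counts. The list had 3 calls without ADAR1 p110 replicate 3 and also without GFP replicate 1 or 3.

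**Figure D5:**
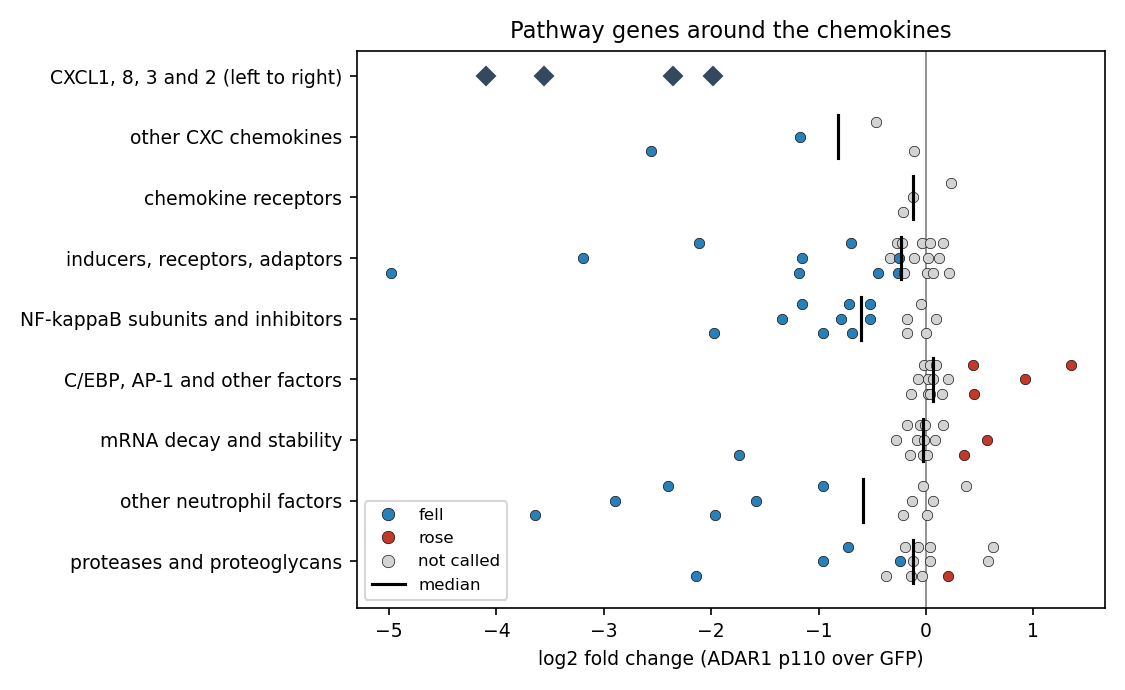
Tested genes of 8 lists by log2 fold change, ADAR1 p110 over GFP (horizontal axis), around the chemokines, blue for lower, red for higher and grey for no call at an adjusted p under 0.05, with list medians as vertical bars. The top row shows CXCL1, CXCL8, CXCL3 and CXCL2 from left to right, between -4.10 and -1.98, and the NF-kappaB row has its median at -0.61.

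Genes with the pattern nearest to the mean of the 6 members were sought over the 6 libraries by Euclidean distance in log2 values (CPM plus 0.5) centred on GFP, among 13540 genes of at least 1 CPM in the higher group. The mean includes CXCL5 and CXCL6 near 0, and stood at -1.97, -1.89 and -1.81 in the ADAR1 p110 replicates. The 4 tested members had log2 fold changes from -4.10 to -1.98, so the mean was close to the smallest of them. The 5 nearest were BIRC3 (distance 0.199), an inhibitor of apoptosis, TNFAIP3 (0.225), UNC13A (0.285), the pentraxin gene PTX3 (0.289) and the complement gene C3 (0.289). BIRC3 had 115 ± 6.90 CPM with ADAR1 p110 and 444.5 ± 14.7 CPM with GFP, and PTX3 97.3 ± 3.64 and 328 ± 17.0 CPM. UNC13A had 0.390 ± 0.0694 CPM with ADAR1 p110 and 3.07 ± 0.427 CPM with GFP (log2 fold change -2.97). At such levels the 0.5 CPM added shrinks the difference. C3 overlaps GPR108, which held 420% as many counts on the same strand, so its reads may have been assigned unevenly. With 2 groups, such likeness reflects mainly the size of the group difference. With 0.1 CPM added in place of 0.5, 3 of the 5 were shared, UNC13A not among them, and by Pearson correlation 0 were.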

How the data were processed

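The submitters' processing notes name STAR 2.5.2a, the hg19 genome and featureCounts 1.5.1. The deposited values are the authors' raw counts per gene. For strand, multiply aligned reads and duplicates, the counting settings are not stated by the labels or notes. The members, gene lists and tests were chosen with earlier results of these data known.

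Genes were kept by filterByExpr of edgeR 4.0.16 (minimum count 10), scaled by TMM and tested by the quasi-likelihood test in R 4.3.3, with Benjamini-Hochberg adjustment over 18899 genes and a call at an adjusted p under 0.05. SE is the log2 fold change divided by the root of F. CPM used TMM totals, and CPM per kb used the deposited gene lengths. Replicates of a group differed by more than sampling noise (chi-square 8.69 to 40.2 per degree of freedom). Up to 3 called genes of smallest p were named per list, or the most abundant if none was called, with called neighbours, the 2 most abundant uncalled neighbours and the 5 nearest patterns. All other genes named in the lists were chosen after their values were seen.

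Promoter windows (250 bases before to 50 after the start) are from RefSeq, GRCh38.p14, with all 6 members matched. Transcripts are GENCODE version 44 on hg19, the canonical coding transcript for untranslated and coding parts. Alternatives were DESeq2 1.42.0 and its size factors, limma-voom 3.58.1, library size, no filter, a replicate block and left-out libraries. The fits were tested on simulated counts. There edgeR recovered 22% of 1.2-fold, 62% of 1.5-fold, 80% of 2-fold and 94% of 4-fold changes, so small changes were often missed. False calls made up 7.19% of its calls, 13.6% of those of DESeq2 and 6.67% of those of limma-voom. Figures used matplotlib 3.10.9. No pairing of same-numbered libraries was seen, by a check that is weak with 3 libraries per group.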

Additional observations from a re-analysis of the deposited data

How the results depend on the processing

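Over 13 alternatives the log2 fold changes of CXCL1, CXCL2, CXCL3 and CXCL8, the values the genes were chosen on, ranged from -4.16 to -4.03, -2.09 to -1.87, -2.44 to -2.27 and -3.64 to -3.46 respectively, which is a description and no support. The number of genes changed was 927, but 1553 without a low-count filter and 2605 without ADAR1 p110 replicate 1 and GFP replicate 2, and 396 to 1812 with each library left out, the latter without ADAR1 p110 replicate 1. With the replicate block it was 508, and the block moved the protease and proteoglycan list from 5 to 3 and no other list by over 1.5 times. Same-numbered libraries correlated at -0.109, -0.0296 and 0.0433 in their deviations, and not every library correlated best with its own number. No pairing was thus seen, but with 3 libraries per group such a check is weak. The labels do not say whether same-numbered cultures were handled together. Without the 2 libraries set apart, calls were 2 beside the cluster, 7 for the C/EBP and AP-1 list, 5 for decay and 8 for proteases and proteoglycans. With each library left out they ranged from 1 to 2 beside the cluster, 3 to 5 for C/EBP and AP-1, 2 to 5 for decay and 3 to 6 for proteases and proteoglycans. The cause was not tested. Without length scaling, the shares of CXCL1, CXCL2, CXCL3 and CXCL8 in the summed counts were 9.05%, 12.5%, 1.57% and 76.9% with GFP and 5.07%, 30.0%, 2.90% and 62.0% with ADAR1 p110, since longer genes then weigh more. Of the 5 nearest patterns, 3 were shared with 0.1 CPM added and 0 by Pearson correlation. CXCL5, CXCL6 and CXCR2 had too few counts for a fold change at this depth.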

Other observations

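The exact element shared by the 6 chemokine promoters, GGAATTTCC on either strand, was also looked up in the windows of the other tested genes, a step added after the values were seen. Of 62 other tested genes with the element, 17 fell and 2 rose (27.4% and 3.23%), with a median log2 fold change of -0.09. Of 11182 tested genes with a window but without the element, 391 fell (3.50%) and 241 rose (2.16%), with a median of -0.00. Genes with the loose form alone gave 147 lower of 3134 (4.69%). Among the carriers that fell were the NF-kappaB pathway genes NFKBIA, NFKB1, NFKBIB, NFKBIZ and REL, the chemokine genes CXCL10 and CXCL11, and ICAM1 and TNFRSF9. All of these except TNFRSF9 belong to the lists above, so the 27.4% counts those calls again. The other carriers that fell were NDRG2, COL7A1, MAP3K8, OPTN, OAS3, WNT10A, MSANTD3 and PTPN2, and those that rose were DUSP6 and PAN2. The carrier with the smallest p was NDRG2, which had 0.346 ± 0.141 CPM with ADAR1 p110 and 517 ± 28.6 CPM with GFP (SD, n = 3 each). Its log2 fold change of -10.54 stood far from those of the other carriers that fell, -2.64 to -0.20, and the reason was not tested. No test of the set was made, and binding was not measured.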
